A study of Mus musculus with 60 samples.

Results

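Imprinted genes are transcribed mainly from the copy inherited from one parent. The values below describe 9 of them in mouse pancreatic islets: the long noncoding RNAs Rian, Meg3, Mirg and H19, and the protein-coding genes Dlk1, Peg3, Plagl1, Nnat and Igf2. They were chosen by a measured value, the lower log2 signal of Rian in MYC-activated islets given water, so the MYC difference with water is given for them as a description and without a test. A gene was represented by the probe set, among those annotated with its symbol alone, whose values had the widest interquartile range over the arrays. Of the 9 genes, 8 had such a probe set, and 7 passed a filter on spread and were among the 13166 genes tested, out of 18193 genes with a probe set of their own. The only H19 probe set also carries the symbol of the microRNA gene Mir675, so no value is given for H19.

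The mice were male CBA-C57BL/6 animals carrying pIns-MYCERTAM, in which an insulin promoter drives, in beta cells, a fusion of MYC to a modified oestrogen receptor domain that becomes active on 4-hydroxytamoxifen. MycON mice received 1 mg of 4-hydroxytamoxifen daily and MycOFF mice received peanut oil. Both also received exendin-4, an agonist of the GLP-1 receptor, at 50 µg/kg, or water, from 2 days earlier. Islets were cut by laser from frozen sections after 4, 8, 16, 32 and 72 h, in 4 treatments: MycON with exendin-4 (12 arrays), MycOFF with exendin-4 (15 arrays), MycON with water (13 arrays) and MycOFF with water (12 arrays). All groups carry the transgene and no mouse without it received 4-hydroxytamoxifen, so MYC activation and the drug itself cannot be told apart. One label gives the age as 8 to 12 weeks and another as 3 months. The labels call the 2 or 3 arrays of a group biological replicates without tying them to named animals.

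Values are on a log2 scale, with 0 at the median of each probe set over the 60 deposited arrays. Levels of different genes therefore cannot be compared, and whether a gene was expressed at all cannot be read. The 52 arrays the submitters kept were used. Their standard deviation over all probe sets ran from 0.284 to 0.949, against 0.969 to 1.40 in the 8 arrays left out.

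Rian, Meg3, Mirg and Dlk1 lie in one imprinted domain of chromosome 12, in the order Dlk1, Meg3, Rtl1, Rian, Mirg, Dio3. In this domain the noncoding RNAs are made from the maternal copy and Dlk1, which encodes a transmembrane protein related to Notch ligands, from the paternal copy. Rian is the host of many small nucleolar RNAs, and Rian, Meg3 and Mirg contain microRNAs. Peg3, on chromosome 7, and Plagl1, on chromosome 10, are paternally expressed and encode zinc finger proteins. Nnat, on chromosome 2, is paternally expressed and encodes a small membrane protein that in beta cells aids the processing of preproinsulin. Igf2 and H19, on chromosome 7, encode a paternally expressed growth factor and a maternally expressed RNA.

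Because exendin-4 signals through cyclic AMP, and MYC binds DNA with its partner MAX, the promoter windows of these genes (250 bases before to 50 after a start, RefSeq, GRCm38.p6) were searched on both strands for the cyclic AMP response element TGACGTCA and for the E-box CACGTG. Matches overlapped in 2 of 32851 windows. The 8 genes with a probe set had 12 windows. The element TGACGTCA stood in 588 of the 32851 windows (1.79%), and among these genes in 1 window each of Meg3 and Peg3. The E-box stood in 2349 windows (7.15%), and among these genes in Plagl1 alone, 182 bases upstream of its start. The windows of Rian, Meg3 and Peg3 are shown because the values below turn on these genes. They are written 5′ to 3′ on the strand of the gene, with TGACGTCA in capitals. A match is a run of letters, and binding was not measured.
Meg3, chr12:109540746-109541045, plus strand, match 57 bases upstream of the start: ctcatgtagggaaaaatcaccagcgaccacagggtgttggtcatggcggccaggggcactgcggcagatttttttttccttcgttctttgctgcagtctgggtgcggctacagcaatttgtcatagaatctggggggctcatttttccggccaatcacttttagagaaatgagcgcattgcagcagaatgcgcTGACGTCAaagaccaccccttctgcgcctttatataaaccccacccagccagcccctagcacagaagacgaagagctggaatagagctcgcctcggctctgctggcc
Rian, chr12:109603695-109603994, plus strand, no match to either motif: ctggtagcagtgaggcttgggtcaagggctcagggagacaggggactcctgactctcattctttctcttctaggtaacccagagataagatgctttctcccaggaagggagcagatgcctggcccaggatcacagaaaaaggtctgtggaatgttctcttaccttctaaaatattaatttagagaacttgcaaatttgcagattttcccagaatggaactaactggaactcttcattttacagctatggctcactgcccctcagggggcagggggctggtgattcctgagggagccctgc
Peg3, chr7:6730470-6730669, minus strand, the 200 bases farthest upstream in its window, match 178 bases upstream of the start: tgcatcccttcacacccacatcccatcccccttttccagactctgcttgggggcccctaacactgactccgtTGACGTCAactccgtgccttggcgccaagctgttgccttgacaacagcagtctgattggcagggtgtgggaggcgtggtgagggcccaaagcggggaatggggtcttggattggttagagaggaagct

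RefSeq places 3 microRNA hairpins within Rian, 1 within Meg3 with 3 mature microRNAs, and 10 within Mirg with 19 mature microRNAs. The 6 mature microRNAs within Rian are printed to show what the transcript carries, with the seed (bases 2 to 8) in capitals. Their 6 seeds all differ from each other. MicroRNAs themselves were not measured by these probe sets.
mmu-miR-341-5p: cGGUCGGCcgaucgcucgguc
mmu-miR-341-3p: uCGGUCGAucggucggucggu
mmu-miR-1188-5p: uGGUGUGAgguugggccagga
mmu-miR-1188-3p: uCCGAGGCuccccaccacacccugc
mmu-miR-370-5p: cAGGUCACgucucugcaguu
mmu-miR-370-3p: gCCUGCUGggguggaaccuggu

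The exendin-4 arrays did not choose the genes. They did enter the choice of the probe set for each gene, by spread over the arrays. Tests on them are therefore not independent of that choice. With exendin-4, Rian and Peg3 were lower in MycON than in MycOFF islets when the 5 times were averaged. Rian was 2.37-fold lower and Peg3 1.88-fold lower. These were the 2 of the 7 tested genes that passed an adjusted p of 0.05, both lower, where 1.23% of all 13166 genes passed as lower and 5.8% passed in either direction (limma, Benjamini-Hochberg over all genes tested). In limma 4 of the 7 had an unadjusted p under 0.05, as did 2371 of the 13166 genes. The 4 were Rian, Peg3 and Meg3 as lower and Dlk1 as higher. The median difference of the 7 genes was 0.17 on the log2 scale and that of all genes was -0.02. In bulk islets, fewer cells of a type and less RNA per cell cannot be told apart.

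Rian is described first, by its widest-ranging probe set, 1428055_at. At 4 h its log2 deviation was -1.29 and -3.12 in MycON exendin-4 islets, against 1.17, -0.24 and 1.16 in MycOFF exendin-4 islets. At 8 h it was -0.03, 0.82 and 0.49 in MycON exendin-4 islets, against 1.71, 1.69 and 1.20 in MycOFF exendin-4 islets. At both times every MycON array lay below every MycOFF array, but at 8 h the MycON arrays were near the median of all arrays and not far below it. The share of all genes whose groups stayed apart in this way is not given. Non-overlap here and below is therefore only a description. At 16 h Rian stood at 1.60 and 1.15 in MycON exendin-4 islets, against 1.74, 0.96 and 1.39 in MycOFF exendin-4 islets, and both groups were high and overlapped. At 32 h it was -3.40 and -1.25 in MycON exendin-4 islets, against 1.21, 0.04 and 0.11 in MycOFF exendin-4 islets, again with no overlap. At 72 h it was -0.78, 0.47 and 1.97 in MycON exendin-4 islets, against 0.00, -0.25 and 0.30 in MycOFF exendin-4 islets, and the MycON arrays spread over both sides of the MycOFF ones.

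The Rian difference averaged over the 5 times was -1.25 ± 0.31 log2 units with exendin-4 (SE; 12 against 15 arrays; limma adjusted p = 0.0117). By time the differences were -2.90 ± 0.72 at 4 h, -1.10 ± 0.65 at 8 h, 0.01 ± 0.72 at 16 h, -2.77 ± 0.72 at 32 h and 0.53 ± 0.65 at 72 h. The 4 h and 32 h differences carried the mean and missed the threshold on their own (limma adjusted p = 0.0878 and 0.0906). Without the 4 h arrays the mean difference was -0.83 (limma adjusted p = 0.164), and without the 32 h arrays it was -0.86 (limma adjusted p = 0.198). The call also ended without 1 single MycON exendin-4 array: without the 4 h array at -3.12 (difference -1.06, limma adjusted p = 0.0552) or without the 32 h array at -3.40 (difference -1.03, limma adjusted p = 0.0563).

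The same gene with water is given as a description, since these arrays led to its choice. At 4 h Rian was -3.39, -2.30 and -2.53 in MycON water islets, against 0.13, 0.00 and 0.37 in MycOFF water islets. At 8 h it was -3.08, -2.49 and -1.29 in MycON water islets, against 0.26 and -0.13 in MycOFF water islets. At these times, and at 32 h (-0.60 and -2.80 in MycON water islets, against 0.15, 1.46 and -0.26 in MycOFF water islets), the groups did not overlap. At 16 h the values were 1.06 and -0.27 in MycON water islets, against 0.00 and 2.14 in MycOFF water islets. At 72 h they were 0.02, 0.29 and -0.60 in MycON water islets, against 0.23 and 0.79 in MycOFF water islets, so that at 16 h and at 72 h the groups overlapped. Averaged over the 5 times the difference was -1.74 ± 0.32 (SE).

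**Figure D1:**
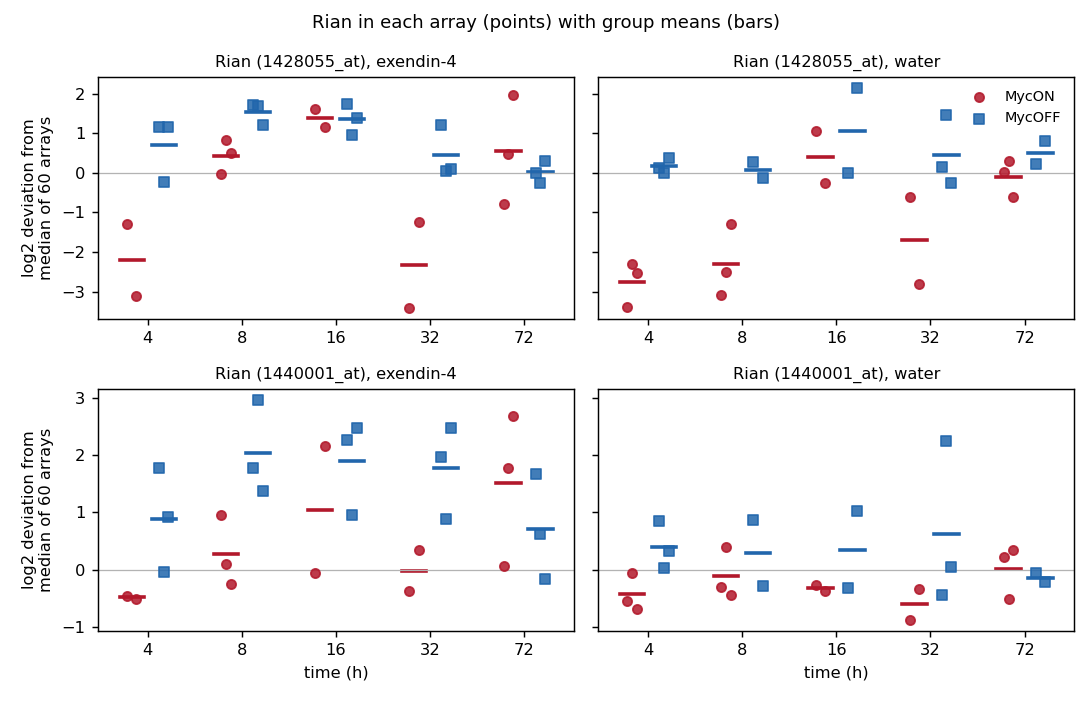
Rian in each of the 52 arrays, with time in hours on the horizontal axis and the log2 deviation from the median of 60 arrays on the vertical axis. Points are arrays and bars are group means, MycON in red circles and MycOFF in blue squares, for probe sets 1428055_at (top) and 1440001_at (bottom). In the top row the MycON arrays at 4 h reach down to -3.12 with exendin-4 and -3.39 with water, while at 16 h and 72 h they mix with the MycOFF arrays.

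The lowest Rian values recurred in MycON groups of both injections. The 5 lowest group means were those of MycON water at 4 h (-2.74), MycON exendin-4 at 32 h (-2.32), MycON water at 8 h (-2.29), MycON exendin-4 at 4 h (-2.20) and MycON water at 32 h (-1.70). They were followed by a step of 1.60 to MycON water at 72 h (-0.10), which was the only 1 of the 19 steps between neighbours in the order of the 20 group means that was larger than the larger SD of its 2 groups (1.55). The highest mean was 1.53, in MycOFF exendin-4 at 8 h. No other neighbours in that order differed beyond their spread. In the 8 arrays left out by the submitters Rian ran from -3.44 to -1.19, with a median of -3.23. Over the 52 kept arrays Rian had a correlation of 0.08 with the standard deviation of the array. It had one of -0.02 with the 3′ minus 5′ signal of the Gapdh control probe sets and one of -0.05 with that of the beta-actin control probe sets, a measure of RNA integrity (description over 52 arrays in 20 groups).

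Rian had 4 probe sets, and they did not move as one. With exendin-4 the MYC difference was -1.25 ± 0.31 for 1428055_at, -0.99 ± 0.32 for 1440001_at, -0.69 ± 0.26 for 1427580_a_at and 0.32 ± 0.30 for 1452899_at (SE). Tested probe set by probe set, the first passed (limma adjusted p = 0.0142) and the others had adjusted p of 0.0607, 0.14 and 0.612. Of 27002 probe sets tested in this way, 0.993% passed as lower. Over the 52 arrays 1428055_at had a correlation of 0.62 with 1440001_at, 0.43 with 1427580_a_at and 0.17 with 1452899_at. The fourth probe set thus hardly followed the others, and which RNA of the locus each one reads is not given in the files. In 1440001_at the MycON exendin-4 arrays ran from -0.51 to 2.68 with a median of 0.09, against -0.16 to 2.95 with a median of 1.66 in MycOFF exendin-4 islets. With water the same probe set ran from -0.88 to 0.40 with a median of -0.33 in MycON islets, against -0.44 to 2.24 with a median of 0.04 in MycOFF islets, so the high values were mostly in MycOFF islets given exendin-4.

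Meg3, a maternally expressed long noncoding RNA of the domain, had 11 probe sets, all past the filter. The widest-ranging one, 1426758_s_at, ran from -0.76 to 1.20 with a median of 0.00 in MycON exendin-4 islets, against -0.60 to 2.07 with a median of 0.86 in MycOFF exendin-4 islets. Its MYC difference was -0.71 ± 0.35 and did not pass (SE; limma adjusted p = 0.275; 95% interval -1.41 to 0.00). With water the difference was -0.94 ± 0.36, as a description. The call for Meg3 depends on which probe sets are used. With exendin-4, 10 of the 11 probe sets had a value below 0, against 58.7% of all 27002 probe sets, and 4 passed as lower on their own, against 0.993% of all. The mean over all 11 gave -0.61 ± 0.11 (limma adjusted p = 0.000724). With water all 11 were below 0, against 60.7% of all, as a description. Over the 52 arrays 1426758_s_at had a correlation of 0.41 with the 3′ minus 5′ signal of Gapdh, whose median was 0.07 in MycON and 0.36 in MycOFF exendin-4 islets. With the same signal of beta-actin its correlation was -0.12. The part of these signals in the Meg3 difference was not tested. Probe sets of 1 gene share its RNA and are not replicates.

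The Meg3 probe set with the largest difference, 1452905_at, was singled out after its values were seen. At 4 h it stood at -1.11 and -1.55 in MycON exendin-4 islets, against 0.40, 0.49 and 0.71 in MycOFF exendin-4 islets. At 8 h it was -0.82, -0.45 and -0.27 in MycON exendin-4 islets, against 1.73, 0.59 and 0.30 in MycOFF exendin-4 islets. At 16 h it was -0.03 and 0.36 in MycON exendin-4 islets, against 0.98, 0.85 and 2.16 in MycOFF exendin-4 islets. At these 3 times every MycON array was below every MycOFF array, also at 16 h, where the Rian groups overlapped. The widest-ranging Meg3 probe set also overlapped at 16 h, from 0.66 to 0.79 in MycON and 0.03 to 2.07 in MycOFF exendin-4 islets. At 32 h 1452905_at was -1.01 and -0.73 in MycON exendin-4 islets, against 0.69, 0.35 and 0.07 in MycOFF exendin-4 islets, again apart. At 72 h it was 0.52, 0.37 and 0.05 in MycON exendin-4 islets, against 1.87, 1.32 and 0.23 in MycOFF exendin-4 islets, with overlap. The mean difference was -1.30 ± 0.21 (SE; limma on single probe sets, adjusted p = 0.000178). With water the same probe set ran from -1.38 to 0.33 in MycON islets, against -0.45 to 1.34 in MycOFF islets.

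**Figure D2:**
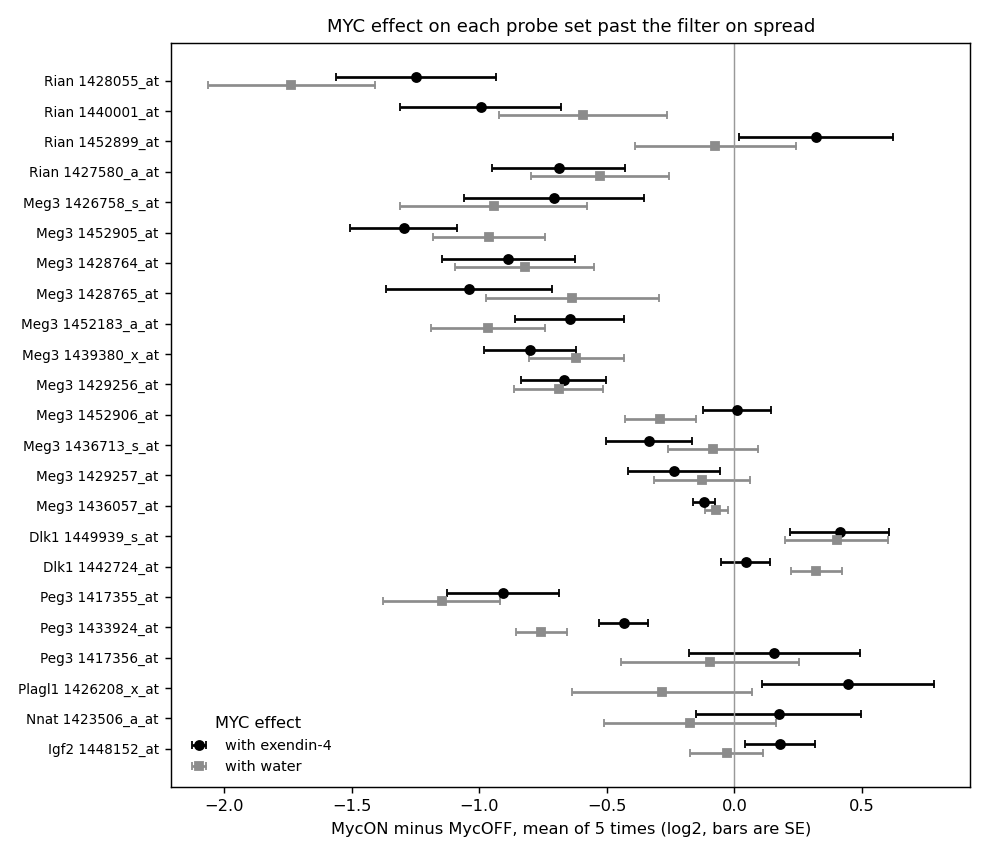
MYC difference (MycON minus MycOFF, mean of 5 times, log2) on the horizontal axis for the 23 probe sets past the filter, each on its own row. Black circles are arrays with exendin-4, grey squares are arrays with water, and bars are SE. With exendin-4 the 11 Meg3 probe sets lie between -1.30 and 0.01, while 1 of the 4 Rian and 1 of the 3 Peg3 probe sets lie right of 0.

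Mirg is the noncoding host of a large microRNA cluster at the far end of the domain. The interquartile range of its wider probe set, 1440097_at, was 0.098, just under the limit of 0.101, and it was not tested. The narrowest probe set of these genes inside the limit was 1436057_at of Meg3, with 0.114. Mirg ran from -0.05 to 0.59 with a median of -0.01 in MycON exendin-4 islets, against -0.03 to 1.76 with a median of 0.02 in MycOFF exendin-4 islets. Most arrays were near 0, and the highest value was 1 MycOFF exendin-4 array at 8 h. The difference was -0.14 ± 0.11 with exendin-4 and -0.14 ± 0.12 with water (SE, description), and at 8 h with exendin-4 it was -0.61 ± 0.24. The second Mirg probe set, 1457030_at, also under the limit, ran from -0.03 to 2.83 with a median of 0.00 in MycON exendin-4 islets, against -0.02 to 1.29 with a median of 0.04 in MycOFF exendin-4 islets. Whether this probe set measured Mirg RNA above background cannot be read from centred values.

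Dlk1, the protein-coding gene of the domain among those described here, had a mean difference above 0. In MycON exendin-4 islets it ran from -0.06 to 1.80 with a median of 0.32, against -0.02 to 1.21 with a median of 0.00 in MycOFF exendin-4 islets. Its difference was 0.41 ± 0.19 and did not pass (SE; limma adjusted p = 0.247). The second Dlk1 probe set, 1442724_at, had a smaller difference of 0.04 ± 0.10 (limma on single probe sets, adjusted p = 0.841). The 12 MycOFF water arrays of the first lay between -0.11 and 0.12. The MycOFF exendin-4 arrays lay between -0.02 and 0.02 at 4, 8, 32 and 72 h, but stood at 0.00, 0.74 and 1.21 at 16 h, where the MYC difference was -0.16 ± 0.45. At 72 h Dlk1 was 0.18, 1.80 and 1.29 in MycON exendin-4 islets, against 0.00, 0.02 and -0.01 in MycOFF exendin-4 islets, and the groups did not overlap. That difference was 1.09 ± 0.41 and did not pass (limma adjusted p = 0.273). With water at 72 h it was 0.21, 0.36 and 1.25 in MycON islets, against -0.11 and 0.01 in MycOFF islets.

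Peg3, a zinc finger gene on another chromosome, was the second gene that passed. At 4 h it stood at -2.88 and -0.34 in MycON exendin-4 islets, against 0.50, 0.34 and 1.01 in MycOFF exendin-4 islets. At 8 h it was -0.14, -0.43 and -0.50 in MycON exendin-4 islets, against 0.98, 0.42 and 1.22 in MycOFF exendin-4 islets. Both times were without overlap, and the 2 MycON arrays at 4 h lay far apart. At 16 h Peg3 was 0.26 and -0.18 in MycON exendin-4 islets, against 0.44, 1.42 and -0.20 in MycOFF exendin-4 islets, which overlapped. At 32 h it was -0.75 and -0.56 in MycON exendin-4 islets, against -0.04, 1.22 and 1.25 in MycOFF exendin-4 islets. At 72 h it was 1.60, 1.03 and 1.58 in MycON exendin-4 islets, against 0.75, -0.38 and 1.18 in MycOFF exendin-4 islets, so that MycON was below at 32 h and mostly above at 72 h.

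The Peg3 difference averaged over the 5 times was -0.91 ± 0.22 with exendin-4 (SE; 12 against 15 arrays; limma adjusted p = 0.00939). By time it was -2.22 ± 0.51 at 4 h, -1.23 ± 0.46 at 8 h, -0.51 ± 0.51 at 16 h, -1.46 ± 0.51 at 32 h and 0.89 ± 0.46 at 72 h. The 4 h difference missed the threshold (limma adjusted p = 0.0504) and shrank to -0.95 without the array at -2.88 (limma adjusted p = 0.982). The mean difference did not pass without 4 h (-0.58, limma adjusted p = 0.172), without 8 h (-0.83, limma adjusted p = 0.0712) or without 32 h (-0.77, limma adjusted p = 0.0812). It also did not pass with all 60 arrays (-1.69, limma adjusted p = 0.131) or when fitted on the exendin-4 arrays alone (limma adjusted p = 0.0516). A second probe set, 1433924_at, had a smaller difference of -0.43 ± 0.10 that also passed on its own (limma adjusted p = 0.0081), and 1417356_at had 0.16 ± 0.33. The mean over all 5 Peg3 probe sets gave -0.25 ± 0.10 (limma adjusted p = 0.127).

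With water, as a description, Peg3 at 4 h was -0.43, -0.34 and -0.03 in MycON islets, against 0.49, 1.09 and 1.28 in MycOFF islets. At 8 h it was -1.04, -1.11 and -1.47 in MycON water islets, against 0.45 and 1.26 in MycOFF water islets. The groups stayed apart at both times. The mean over the 5 times was -1.15 ± 0.23 (SE). In the order of the 20 group means, from -1.61 in MycON exendin-4 at 4 h to 1.40 in MycON exendin-4 at 72 h, 4 of the 19 steps were larger than the larger SD of the neighbours. The lowest 9 places were all held by MycON groups, and the highest place by MycON exendin-4 at 72 h.

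**Figure D3:**
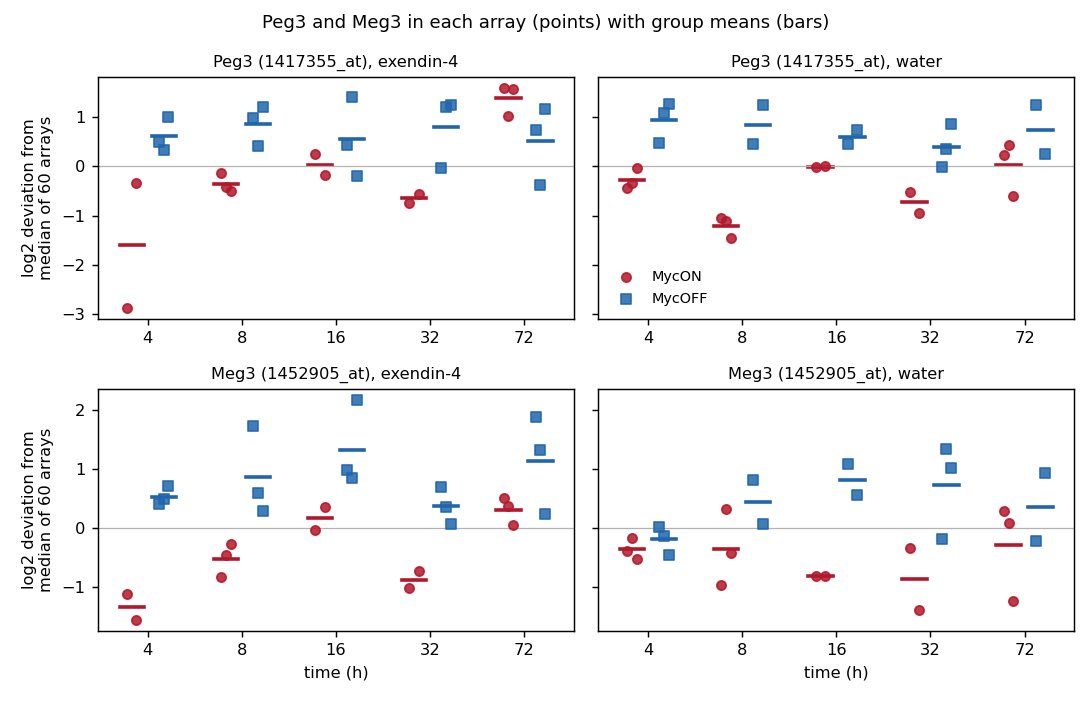
Peg3 (1417355_at, top) and Meg3 (1452905_at, bottom) in each of the 52 arrays, with time in hours on the horizontal axis and log2 deviation from the median of 60 arrays on the vertical axis. Points are arrays and bars are group means, MycON in red circles and MycOFF in blue squares. With exendin-4 the MycON arrays of Peg3 lie under the MycOFF arrays at 4, 8 and 32 h and reach 1.60 at 72 h.

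The other 3 tested genes did not pass in the MYC comparison with exendin-4. Plagl1 ran from -1.79 to 1.43 with a median of 0.07 in MycON exendin-4 islets, against -3.05 to 0.99 with a median of -0.17 in MycOFF exendin-4 islets, a difference of 0.44 ± 0.33 (limma adjusted p = 0.525). Nnat ran from -0.52 to 2.18 with a median of 0.29 in MycON exendin-4 islets, against -0.48 to 2.33 with a median of 0.10 in MycOFF exendin-4 islets, a difference of 0.17 ± 0.32 (limma adjusted p = 0.803). The groups of both genes overlapped, and the lowest Plagl1 arrays were in MycOFF exendin-4 islets. Igf2 ran from -0.10 to 1.45 with a median of 0.10 in MycON exendin-4 islets, against -0.44 to 0.83 with a median of -0.01 in MycOFF exendin-4 islets, a difference of 0.18 ± 0.14 (limma adjusted p = 0.544). The 95% intervals were -0.23 to 1.12 for Plagl1, -0.47 to 0.82 for Nnat and -0.11 to 0.46 for Igf2, so a difference as large as that of Rian in the negative direction lies outside all 3. With water the differences were -0.28 ± 0.35, -0.17 ± 0.33 and -0.03 ± 0.15 in the same order of genes, as a description.

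At single times none of the 7 genes passed with exendin-4 in limma, at a background of 0.19% of all genes at 4 h, 1.36% at 8 h, 0.0835% at 16 h, 0.327% at 32 h and 1% at 72 h. The number with an unadjusted p under 0.05 was 3 at 4 h (Rian and Peg3 as lower, Igf2 as higher), 1 at 8 h (Peg3), 0 at 16 h, 2 at 32 h (Rian and Peg3) and 1 at 72 h (Dlk1, as higher). Igf2 at 4 h stood at 0.19 and 1.45 in MycON exendin-4 islets, against a mean of -0.02 in MycOFF exendin-4 islets. Leaving out 1 array took that difference down to 0.20. A group at one time had 2 or 3 arrays.

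Changes over time within a treatment were found in MycON exendin-4 islets. The arrays of these islets did not choose the genes but entered the choice of probe sets by spread. In MycON exendin-4 islets 2 of the 7 genes passed the F test across the 5 times, Rian (limma adjusted p = 0.0036) and Peg3 (limma adjusted p = 0.00404), where 1.97% of all genes passed. In MycON water islets none of the 6 genes other than Rian passed in limma, where 1.75% of all genes passed, and 0 had an unadjusted p under 0.05. In MycOFF exendin-4 islets none of the 7 genes passed, and in MycOFF water islets none of the 6 genes other than Rian, with 0 at an unadjusted p under 0.05 in both and at a background of 0% and 0.0076% of all genes. Rian was not tested over time in the water arrays, which chose it. Rian had its lowest values at 4 and 32 h and its highest mean at 16 h in MycON exendin-4 islets. Peg3 was lowest at 4 h and highest at 72 h in the same islets. That these time courses differ between MycON and MycOFF with exendin-4 was tested directly, in a test added after seeing the data, and did not pass (limma adjusted p = 0.214 for Rian and 0.12 for Peg3; 0.387% of all genes passed). The F tests of Rian and Peg3 in MycON exendin-4 islets did not pass when fitted on those 12 arrays alone (limma adjusted p = 0.213 and 0.204).

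**Figure D4:**
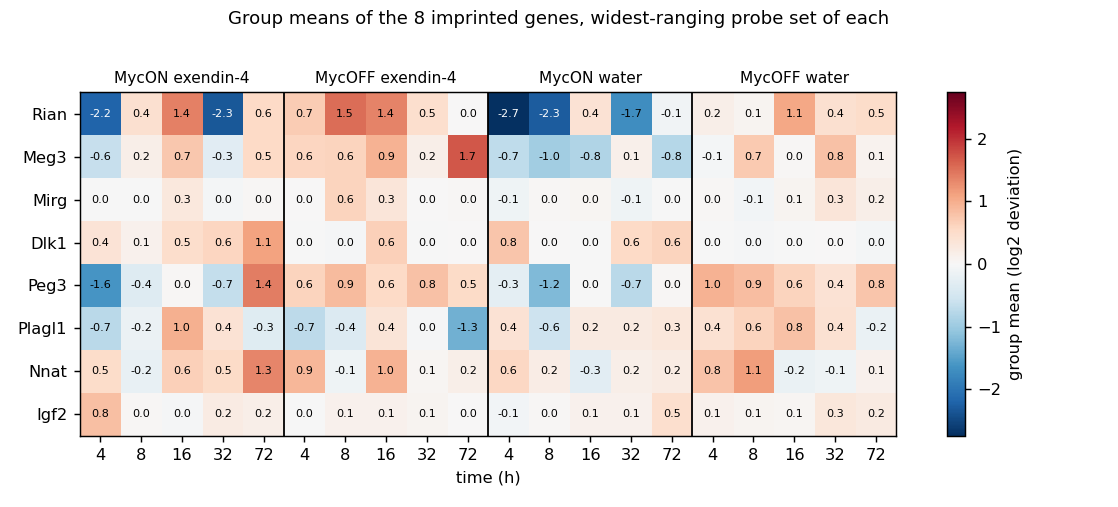
Group means of the 8 genes with a probe set of their own, in log2 deviation from the median of 60 arrays (colour, blue below and red above 0, with the value printed to 1 decimal). Columns are the 5 times in hours within each of the 4 treatments. Rian and Peg3 hold the darkest blue cells, in MycON columns, while Mirg and Igf2 stay pale in most columns.

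Exendin-4 itself was compared with water in islets of the same MYC state. Without MYC none of the 6 tested genes other than Rian passed in limma, where 0.228% of all genes passed, and 1 had an unadjusted p under 0.05. It was Plagl1, which ran from -3.05 to 0.99 with a median of -0.17 in MycOFF exendin-4 islets, against -0.37 to 1.19 with a median of 0.44 in MycOFF water islets. The difference was -0.83 ± 0.33 (SE; limma adjusted p = 0.501). Its lowest arrays, at -3.05 and -2.38, were 1 at 72 h and 1 at 4 h. All 11 Meg3 probe sets had positive differences between exendin-4 and water in MycOFF islets, against 52.7% of all probe sets, and none passed on its own (0.137% of all probe sets did), the widest-ranging one being at 0.48 ± 0.35 (limma adjusted p = 0.802). Dlk1 stood at 0.14 ± 0.19, Nnat at 0.05 ± 0.32, Peg3 at -0.04 ± 0.22 and Igf2 at -0.10 ± 0.14.

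With MYC active none of the 6 passed either between exendin-4 and water in limma, at a background of 0.0684%, and 0 had an unadjusted p under 0.05. Meg3 was closest, at 0.72 ± 0.36 (SE; limma adjusted p = 0.761). The test of whether the MYC difference itself depended on exendin-4 also gave none of the 6, at a background of 0% and with 0 at an unadjusted p under 0.05. Over all genes it gave 250 with an unadjusted p under 0.05. For Peg3 the MYC difference with exendin-4 minus that with water was 0.24 ± 0.32 (95% interval -0.40 to 0.88). The second Peg3 probe set, 1433924_at, had exendin-4 minus water of 0.36 ± 0.10 in MycON and 0.03 ± 0.10 in MycOFF islets. Neither passed (limma on single probe sets, adjusted p = 0.279 and 0.93). For Rian, whose choice used the water arrays, the values are a description. Exendin-4 minus water was 0.85 ± 0.32 in MycON and 0.36 ± 0.31 in MycOFF islets, and the difference between the MYC differences was 0.49 ± 0.45. These values depend on the probe set: for 1440001_at exendin-4 minus water was 0.76 ± 0.33 in MycON and 1.16 ± 0.32 in MycOFF islets, the larger being in MycOFF. For 1427580_a_at it was -0.06 ± 0.27 in MycON and 0.10 ± 0.26 in MycOFF islets, and for 1452899_at 0.00 ± 0.31 in MycON and -0.39 ± 0.30 in MycOFF islets. At 8 h Rian lay between -0.03 and 0.82 in MycON exendin-4 islets, against -3.08 to -1.29 in MycON water islets.

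Over the 20 group means the 5 genes whose pattern was most like that of Rian were Vasn (Pearson correlation 0.87), Lyrm2 (0.87), Pamr1 (0.87), C77080 (0.86) and Gm32031 (0.86), out of 13165 genes. Among the imprinted genes Peg3 was at 0.76, the 64th in that order, and Meg3 at 0.59, the 460th. Dlk1 stood at -0.29, Igf2 at -0.25, Nnat at -0.05 and Plagl1 at 0.15. The 20 means share arrays, treatments and any effect common to an array, so these correlations only describe likeness. Over single arrays the pairs among the 8 genes with the strongest correlations were Dlk1 with Nnat (0.57) and Rian with Peg3 (0.54, n = 52). Within groups, after taking out the group means, the correlation with Rian was -0.17 for Peg3 and -0.27 for Meg3, so the likeness of these genes lay between groups and not between arrays of a group. Dlk1 and Nnat also shared a relation to the 3′ minus 5′ signal of beta-actin, with correlations of -0.52 and -0.46. With the same signal of Gapdh their correlations were -0.16 and -0.08. Plagl1 had a correlation of -0.44 with the standard deviation of the array. The part of these measures in the values was not tested.

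Further imprinted genes were set beside these. Of a list of 64 further imprinted genes, 54 had a probe set of their own and 42 were tested. None passed in the MYC comparison with exendin-4 in limma, where 5.8% of all genes passed, and 3 had an unadjusted p under 0.05. Their median difference was 0.01, with 21 of 42 below 0 and a range from -0.60 to 0.51, against a median of -0.02 over all genes. None passed in either comparison of exendin-4 with water, in the interaction or in the F tests across times, where between 1 and 5 had an unadjusted p under 0.05. With water 1 of the 42 passed, as lower, where 1.66% of all genes passed as lower. It was Nap1l5, an imprinted gene of the nucleosome assembly protein family, at -1.14 ± 0.28 (SE; limma adjusted p = 0.012), named after its values were seen.

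Cell type markers were also compared, although centred values cannot show whether a marker is present. Of 8 tested beta cell markers none passed in the MYC comparison with exendin-4 in limma, 2 had an unadjusted p under 0.05, and their median difference was -0.21. With water 2 of the 8 passed as lower (1.66% of all genes did) and their median difference was -0.42. With exendin-4 their mean per array ran from -1.19 to 0.42 in MycON exendin-4 islets, against -1.02 to 1.39 in MycOFF exendin-4 islets. At 32 h, where Rian was at -3.40 and -1.25, the beta cell marker means were 0.41 and -0.02, and at 16 h, where Rian was at 1.60 and 1.15, they were 0.39 and 0.42. The MycON exendin-4 array at 4 h with Peg3 at -2.88 and Rian at -1.29 had a beta cell marker mean of -1.10. That of the 4 h array with Rian at -3.12 is not given. At 8 h with exendin-4 all 8 beta cell markers had MYC differences below 0, with a median of -0.87 against -0.01 over all genes. None of the 8 passed at 8 h in limma, and 2 had an unadjusted p under 0.05. Of 10 immune cell markers 4 were higher with exendin-4, where 4.56% of all genes passed as higher, with a median difference of 1.20. With water 1 of the 10 was higher, where 3.94% of all genes passed as higher, with a median of 0.45. With exendin-4 the mean of the immune markers per array ran from -0.80 to 3.10 in MycON exendin-4 islets, against -1.85 to 0.43 in MycOFF exendin-4 islets. In the MycON exendin-4 arrays at 4 h, where Rian and Peg3 were low, the immune means were -0.80 and -0.24, and at 72 h they were 2.57, 2.46 and 3.10. Of the markers of alpha, delta and PP, acinar, duct, endothelial, stromal, neural, muscle and skin cells none passed in the MYC comparison with exendin-4 in limma, and 2 endothelial and 2 stromal markers had an unadjusted p under 0.05. Acinar markers differed by time with exendin-4. At 4 h 0 of the 7 tested acinar markers were below 0, with a median of 1.77, against -0.09 over all genes. At 32 h 1 of the 7 was below 0, with a median of 0.71, against -0.05 over all genes. The acinar medians at 8, 16 and 72 h were -0.18, 0.10 and -0.18. No acinar marker passed at any of these times. With water 1 of 6 endothelial markers passed as lower (1.66% of all genes did), with a median difference of -0.34. At 72 h with exendin-4, 1 of 7 stromal and 5 of 10 immune markers passed as higher, where 1% of all genes passed in either direction. The part of cell composition in the values of the imprinted genes was not tested.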

How the data were processed

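RNA from laser-captured islets was measured on 60 Affymetrix arrays. The deposited file gives 45101 probe sets as log2 values, each centred by the authors on its median over the 60 arrays (100% of probe sets have a median of 0 within 1.0e-04). No source gives the log base, which was taken as 2 because values reach 12.8, above the 11.1 that natural logs of 16-bit intensities allow. MAS5 and GCRMA are listed in the submitters' processing notes without a stated role. How they were combined is not given in the sources used here. Absolute levels and background limits could not be read, and the number of arrays limits precision.

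The submitters left out 8 arrays for poor reproducibility, and 52 were analysed in 20 groups, 12 of 3 arrays and 8 of 2. Per the platform annotation 34945 probe sets have 1 gene symbol, 932 several, 9160 none, and 64 are controls. Probe sets with an interquartile range at or above the 40th percentile (0.101) were kept (27002), and the widest-ranging one stood for its gene. All 20 group means were estimated in one limma model (limma 3.58.1, R 4.3.3), with variances moderated by eBayes (residual degrees of freedom 32, prior 2.75). Benjamini-Hochberg adjustment ran over all 13166 genes, with a threshold of 0.05. On simulated data for the MYC comparison with exendin-4 (13166 genes), 67 of 100 changes of 1 log2 unit and 98 of 100 of 2 units were recovered, with 8 false calls.

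Members, lists and tests were chosen with earlier results of these data known. All members were named, with the 5 genes most like Rian and any called gene of the other imprinted list. Rian was not tested in any comparison that uses the water arrays. Replicate numbers did not pair the arrays: 5 of 22 same-numbered pairs had a correlation over 0.1. Alternatives were all 60 arrays, no filter, quantile or median scaling, the mean over probe sets, array weights, a replicate block, only the arrays compared, and leaving out each array. Single probe sets, leaving out each time, array quality and the F test between time courses were added after seeing the data. Sequences are from RefSeq tables of GRCm38.p6. Figures were drawn with matplotlib 3.10.9.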

Additional observations from a re-analysis of the deposited data

Results flagged for a closer look

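Igf2 was high in 1 array that the submitters left out and that enters no comparison above. In the left-out MycON exendin-4 array at 16 h (replicate 2) it stood at 3.52 log2 units, against a highest value of 1.45 in the 52 arrays kept and of 0.50 in the MycOFF water arrays. The standard deviation over all probe sets was 1.37 in that array, against at most 0.949 in the arrays kept, and its part in the value was not tested. In the same 8 left-out arrays Peg3 ran from -6.40 to -3.13.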

How the results depend on the processing

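In none of the settings run did a named gene whose difference was called change sign, and 928 of 955 values of the named genes under settings other than leaving out 1 array kept their call. The calls that ended are given above with Rian and Peg3. Besides these, with all 60 arrays Peg3 stood at -1.69 (limma adjusted p = 0.131), on the exendin-4 arrays alone its limma adjusted p was 0.0516, and the F tests of Rian (0.178) and Peg3 (0.797) in MycON exendin-4 islets did not pass with all 60 arrays. Calls were gained for Rian at 32 h with quantile normalization (-3.44), the mean over probe sets (-1.76), array weights (-2.52) and without 1 MycON array (-3.85), and for Peg3 at 4 h without any 1 of 6 arrays (limma adjusted p = 0.00136 to 0.0495). Array weights also called Peg3 at 4, 8 and 32 h (-2.35, -1.25 and -1.73), Dlk1 at 72 h (1.52) and its change over time in MycON exendin-4 islets (0.049), and the differing time courses of Rian (0.0356) and Peg3 (0.0269), the last also with the mean over probe sets (0.0419) and without 1 MycON array (0.00549). The described water difference of Peg3 was -0.47 with all 60 arrays and -0.41 with the mean over probe sets, which gave -0.73 for Rian. The causes were not tested. Counts over all genes moved as follows. With all 60 arrays, 3 genes passed for exendin-4 with MYC, 8 without MYC, 175 for MYC with water, 1 for differing time courses, 0, 24, 0, 6 and 11 for MYC with exendin-4 at 4, 8, 16, 32 and 72 h, and 24, 45 and 0 for change over time in MycON exendin-4, MycON water and MycOFF water islets. With no filter, 17 passed for exendin-4 without MYC, and 1 and 8 changed over time in MycOFF exendin-4 and MycOFF water islets. With quantile normalization, 18 and 49 passed for exendin-4 with and without MYC, 1163 for MYC with water, 56, 315, 2, 234 and 78 by time, and 6 over time in MycOFF water islets. With array medians subtracted, 0 changed over time in MycOFF water islets. With the mean over probe sets, 49 passed for exendin-4 without MYC, and 369 and 2 over time in MycON and MycOFF water islets. With array weights, 48 passed for exendin-4 with MYC, 281 for differing time courses, 664, 1, 404 and 1154 at 8, 16, 32 and 72 h, and 695, 207, 2236 and 48 over time in MycON exendin-4, MycOFF exendin-4, MycON water and MycOFF water islets. Fitted on only the arrays compared, 11 passed for exendin-4 without MYC, 18 for differing time courses, 3, 7, 25 and 67 at 4, 16, 32 and 72 h, and 9 and 40 over time in MycON exendin-4 and MycON water islets. This fit was not run for the interaction. On single probe sets, 16 passed for exendin-4 with MYC, 1191 for MYC with water, 20 and 67 at 16 and 32 h, and 451, 398 and 17 over time in MycON exendin-4, MycON water and MycOFF water islets. For MYC with exendin-4, 282 passed without 8 h and 349 without 32 h. With the replicate number as a block, for numbers that do not pair the arrays, 737 passed for MYC with exendin-4, 15 for exendin-4 with MYC and 0 over time in MycOFF water islets. Across 22 same-numbered pairs 5 correlations exceeded 0.1, and 20 of 52 arrays correlated best with their own number. Leaving out 1 array at a time gave 505 to 899 for MYC with exendin-4, 496 to 839 for MYC with water, 3 to 27 and 11 to 45 for exendin-4 with and without MYC, 0 to 2 for the interaction, 21 to 114 for differing time courses, and 8 to 48, 57 to 258, 3 to 140, 12 to 50 and 55 to 235 by time. It gave 143 to 453, 0 to 19, 124 to 366 and 0 to 49 over time in MycON exendin-4, MycOFF exendin-4, MycON water and MycOFF water islets. A group left with 1 array is assumed to vary like the others.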
